A study of Mus musculus with 2 samples.

Results

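Stem cells of the small intestine sit at the base of crypts, divide through life and feed a larger pool of transit-amplifying (TA) cells that divide faster. Dividing cells copy their DNA in S phase and then, in G2 and mitosis, make the cyclins, kinases, kinetochore and spindle proteins that separate the chromosomes. Mki67, a coat protein of mitotic chromosomes, and Top2a, the topoisomerase that untangles copied DNA, are transcribed mainly from late S phase to mitosis. The cells described here are annotated stem cells of the mouse jejunum, split by these 2 genes into cycling and non-cycling cells.

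The data are single-cell RNA profiles of jejunal crypts from 2 male mice, 12 months old, with 1 library per mouse (375KO replicate 1 and replicate 2). Both mice, and so every group below, carry a whole-body deletion of the microRNA gene miR-375. The deletion was made with CRISPR/Cas9 in FVB x B62J F1 hybrid embryos, followed by backcrossing to B6 albino mice, and the labels name the strain as C57BL6/2J. No wild-type library was analysed here and none of the 27998 genes counted is Mir375. Therefore neither the loss of miR-375 nor its effect was measured. The 3275 annotated cells included 256 annotated stem cells, 139 in replicate 1 and 117 in replicate 2. No cell barcode was shared between the libraries.

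A stem cell was called cycling when its raw UMIs (unique molecular identifiers, the tags by which copies of a captured transcript are counted once) of Mki67 and Top2a summed to 2 or more, and non-cycling when the sum was 0. This gave 64 cycling cells, 42 in replicate 1 and 22 in replicate 2, and 132 non-cycling cells, 63 and 69. The 60 stem cells with a sum of 1, 34 and 26, were left out of both classes. Just inside the limit lay 12 and 10 cells with a sum of 2. The highest sum was 20 UMIs in replicate 1 and 7 UMIs in replicate 2. Mki67 and Top2a themselves chose the cells and are not results: Mki67 had 122 and 29 UMIs and Top2a 67 and 36 UMIs in the cycling cells, and both had none in the non-cycling cells by construction.

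**Figure D1:**
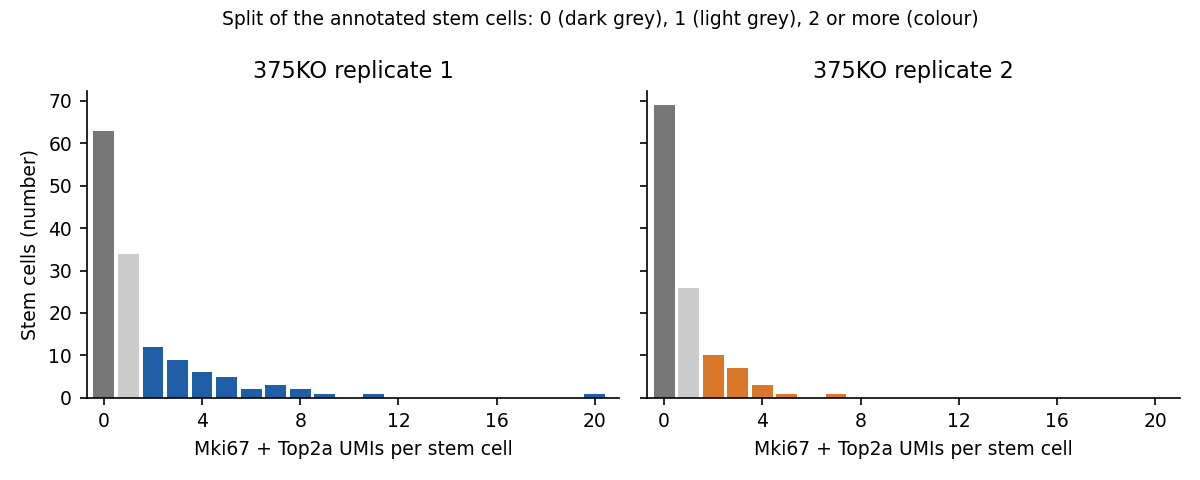
Number of annotated stem cells (y axis) by the sum of their Mki67 and Top2a UMIs (x axis), with 1 panel per library. Dark grey marks the non-cycling cells (63 and 69), light grey the cells with a sum of 1 (34 and 26) and colour the cycling cells (42 and 22). Most stem cells lie at 0 or 1.

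The share of cycling cells among stem cells was 30.2% in replicate 1 (95% Clopper-Pearson interval 22.7 to 38.6) and 18.8% in replicate 2 (12.2 to 27.1), a mean of 24.5% ± 8.07 (SD, n = 2). These intervals cover counting error only, and with 2 mice no test of the share was run. Among annotated TA cells the same rule called 90.6% (290 of 320) and 89.5% (289 of 323). Goblet progenitors reached 84.6% and 82.1%. Enterocytes, which no longer divide, gave 3.22% (30 of 931) and 4.97% (19 of 382). Paneth cells, which are also post-mitotic, gave 0 of 78 (95% Clopper-Pearson interval up to 4.62%) and 6 of 54 (11.1%). These are the levels at which cells that should lack the genes pass the rule. The median cell held 16975 and 13405 UMIs among enterocytes and 12282 and 12559 among stem cells. With every cell thinned to 5000 UMIs, 13.97% (19 of 136) and 5.13% (6 of 117) of stem cells passed, against 0.108% and 0.785% of enterocytes. The share of stem cells called cycling therefore depended on depth, while stem cells lay above enterocytes in both libraries with and without thinning. Thinned tuft cells were at 7.69% and 7.89%, above thinned stem cells in replicate 2 only.

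Cycling cells were deeper than non-cycling cells. The median cycling cell held 14252 UMIs and the median non-cycling cell 11004 in replicate 1, and 13033 against 11449 in replicate 2, ratios of 1.30 and 1.14. The mitochondrial share was close between the classes, at 9.89% against 10.4% and 5.89% against 6.09%. The cells of each class and library were summed, so that 4 sums were compared, paired by mouse. The cycling sums held 653035 and 314023 UMIs and the non-cycling sums 699314 and 874330. Levels below are UMIs per 1000000 UMIs of a sum (CPM). The log2 fold changes are cycling over non-cycling, with their standard error (SE), from the quasi-likelihood fit of edgeR with mouse as a term, and adjusted p values are over all 6323 genes tested.

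The stem label was compared with its markers in TA cells of the same libraries. The study drew both labels from the expression of these same cells, so agreement with known markers is partly built in. Lgr5, the R-spondin receptor that defines crypt base stem cells, stood at 12.7 to 82.9 CPM in the 4 stem cell sums and at 0 to 9.40 CPM in the 4 TA sums. Ascl2, Smoc2 and Axin2 were also higher in every stem cell sum than in any TA sum, at 49.0 to 79.6 against 5.98 to 24.7 CPM for Ascl2. Olfm4 went with the label in replicate 1, at 270 and 360 CPM, and was near absent in replicate 2, at 22.3 and 10.3 CPM. The TA markers Mcm4 and Mcm5 were not lower in stem cells, at 37.7 to 55.1 CPM against 17.9 to 33.0 for Mcm4. Slc12a2, Pcna and Tubb5 were also set as markers and are not compared here.

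Non-cycling names the rule and not a resting state. Genes of S phase and DNA replication (50 genes, Mki67 and Top2a not among them) took a median of 29.2 UMIs per 10000 in the cycling cells and 19.0 in the non-cycling cells of replicate 1, and 21.1 and 14.5 in replicate 2. Of the non-cycling cells, 18 of 63 (28.6%, 95% interval 17.9 to 41.3) and 18 of 69 (26.1%, 16.3 to 38.1) stood at or above the median of the cycling cells. The non-cycling class thus held cells with S phase transcripts as high as those of many cycling cells.

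Across all genes, 69 were higher in cycling cells (1.09% of those tested) and 95 were lower (1.5%), with a median log2 fold change of -0.01 over all genes tested. In the single mice that median was -0.01 and -0.05. The share of all tested genes that moved the same way in both mice is not given here. Counts of list members that did so lack that background and are descriptions. Of the 69 higher genes 45 (65.2%) belong to the G2 and mitosis lists, and of the 95 lower genes 56 (58.9%) are cytosolic ribosomal protein genes. Only 1 residual degree of freedom stood behind the fit, which borrowed its spread across genes, and the p values describe 2 mice. When the spread was instead taken from the sums of all epithelial cell types, 25 genes were higher and 1 was lower, and a DESeq2 Wald test gave 3 and 61. With scaling by library size alone the split of calls turned, with 119 higher and 55 lower, and the median of all genes moved from -0.01 to 0.09.

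**Figure D2:**
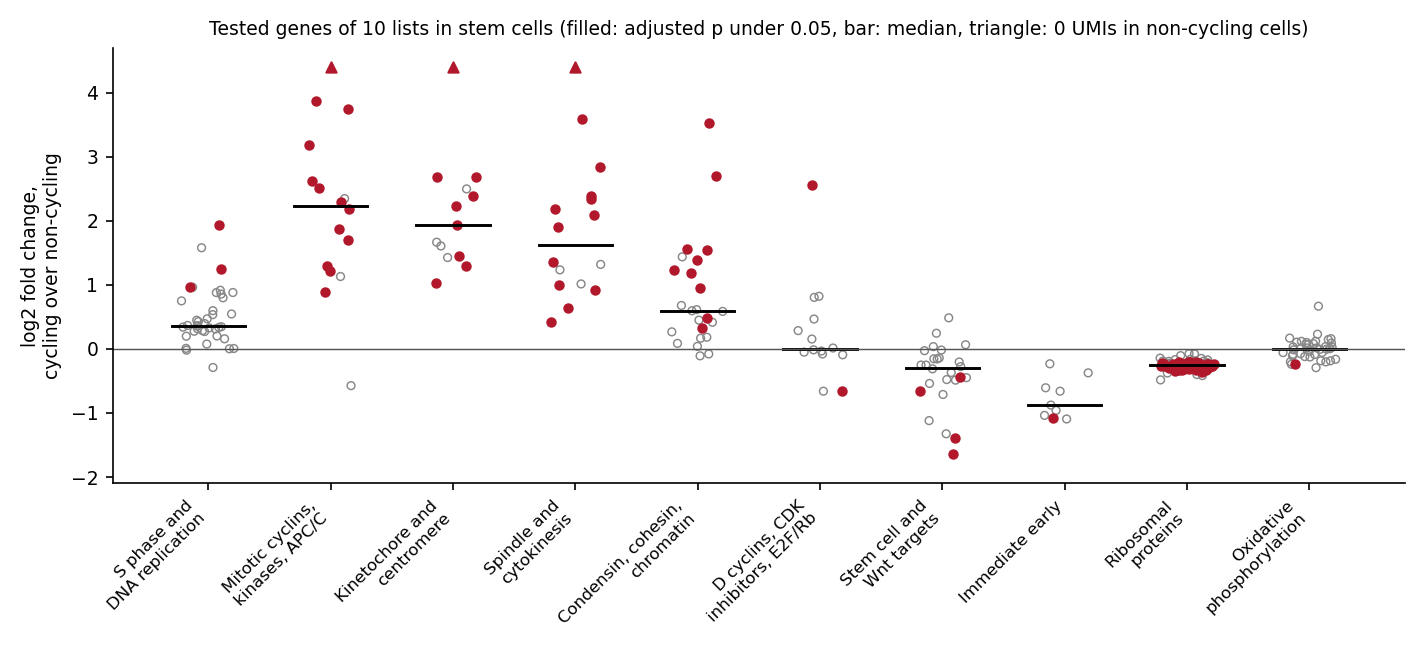
Log2 fold change between cycling and non-cycling stem cells (y axis) of each tested gene in 10 gene lists (x axis). Filled points passed an adjusted p of 0.05, bars are medians over all tested members, and triangles at the top mark Kif22, Plk1 and Ttk, which had 0 UMIs in non-cycling cells and no defined fold. The 4 lists of G2 and mitosis lie mostly above 0 and the ribosomal protein genes below 0.

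Genes of G2 and mitosis were higher in the cycling stem cells of both mice. The 4 lists hold 121 genes, which summed to 10421 CPM in cycling and 5724 in non-cycling cells of replicate 1, and to 11041 and 5475 in replicate 2. That is 1.82-fold and 2.02-fold higher. Of the 121 genes, 69 were tested and 45 rose, while 0 fell. A set of 26 of the 69 was tested only because of its level in the cycling sums and could hardly have gone the other way. Among the other 43, 26 rose. The count of 45 was 34 in the UMI-matched cells described below, 24 with the spread of all epithelial sums and 2 with the DESeq2 Wald test. It was 15 with the classed cells thinned to 5000 UMIs, and 0 with the thinning done before the split. Bub3, a spindle checkpoint protein, was the 1 tested gene lower in both mice, at -0.57 ± 0.28 (adjusted p = 0.478).

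Cyclins, mitotic kinases and the anaphase-promoting complex gave 13 rises among 16 tested genes, of which 8 were tested only through the cycling sums and 6 of the other 8 rose. Cdc20, the activator of that complex, stood at 91.9 and 115 CPM in cycling cells and at 14.3 and 6.86 CPM in non-cycling cells. The classes did not overlap, and its log2 fold change was 3.19 ± 0.36 (adjusted p = 7.82e-08). Cdc20 lay under the filter of 14.8 CPM in both non-cycling sums. It was thus tested only through the cycling sums and could hardly have fallen. It was detected in 52.4% and 45.5% of cycling cells and in 6.35% and 5.80% of non-cycling cells. Ccna2, the cyclin of S and G2 phase, was likewise tested only through the cycling sums. It rose from 1.43 and 5.72 CPM to 49.0 and 70.1 CPM (3.86 ± 0.48). Ccnb2, a mitotic cyclin, rose from 47.2 and 26.3 CPM to 141 and 150 CPM (1.86 ± 0.24). Cks2, a small subunit of cyclin-dependent kinases, rose from 98.7 and 106 CPM to 219 and 328 CPM (1.29 ± 0.17). Ccnb1 (3.75 ± 0.53) and Ube2c (2.18 ± 0.29), which are named here after their values were seen, rose too. Cdk1, the kinase these cyclins drive, did not pass the test at 1.13 ± 0.39 (adjusted p = 0.143), with 42.9 and 54.1 CPM in cycling and 30.0 and 9.15 CPM in non-cycling cells. Aurka did not pass either, at 2.35 ± 0.78 (adjusted p = 0.124), on 15 UMIs in cycling and 4 in non-cycling cells. Plk1, a kinase of mitotic entry, had 10 and 5 UMIs in cycling cells and none in non-cycling cells. Against the 3 UMIs that a count of 0 over both libraries allows, it was at least 8.14-fold higher. Plk1 was also tested only through the cycling sums and could not have fallen.

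Kinetochore, centromere and chromosomal passenger genes gave 9 rises among 13 tested, with 7 rises among the 7 not tested only through the cycling sums. Cenpa, the histone that marks centromeres, stood at 158 and 213 CPM in cycling and at 28.6 and 37.7 CPM in non-cycling cells, a log2 fold change of 2.38 ± 0.22 (adjusted p = 3.56e-10). Birc5, a passenger complex subunit, stood at 135 and 111 CPM against 22.9 and 12.6 CPM (2.69 ± 0.29). Cdca8, another subunit of that complex, rose by a similar amount (2.68 ± 0.33). Cenpf rose from 17.2 and 2.29 CPM to 64.3 and 35.0 CPM (2.23 ± 0.42). The checkpoint kinase Ttk had 10 and 5 UMIs in cycling cells and none in the others. Ttk was thus tested only through the cycling sums and could not have fallen.

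Spindle, motor and cytokinesis genes gave 13 rises among 16, with 5 among the 7 not tested only through the cycling sums. Tubb4b, a beta tubulin, stood at 429 and 306 CPM against 172 and 97.2 CPM (1.35 ± 0.15). Tuba1b, an alpha tubulin, rose from 60.1 and 149 CPM to 90.3 and 373 CPM (0.99 ± 0.18), and cycling cells of replicate 1 lay below non-cycling cells of replicate 2. Tpx2, a spindle assembly factor, had 24 and 10 UMIs in cycling and 1 and 3 in non-cycling cells (3.59 ± 0.60). Tpx2 was tested only through the cycling sums. Kif22, a chromosome motor, had 17 and 9 UMIs in cycling cells and none in non-cycling cells, at least 14.1-fold higher against the same limit. Kif22 was also tested only through the cycling sums and could not have fallen.

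Among genes of condensin, cohesin and chromatin, 10 of 24 rose, with 8 among the 21 not tested only through the cycling sums. Hmgb2, an abundant chromatin protein of dividing cells, had the lowest p of all genes tested. It stood at 867 and 994 CPM in cycling cells and at 299 and 296 CPM in non-cycling cells, a log2 fold change of 1.54 ± 0.10 (adjusted p = 2.51e-14). H2afz, a histone variant, rose by 0.49 ± 0.08. Smc4, a condensin subunit, stood at 109 and 82.8 CPM against 45.8 and 21.7 CPM (1.39 ± 0.28). Rad21, a cohesin subunit, rose from 51.5 and 48.0 CPM to 113 and 140 CPM (1.23 ± 0.22).

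**Figure D3:**
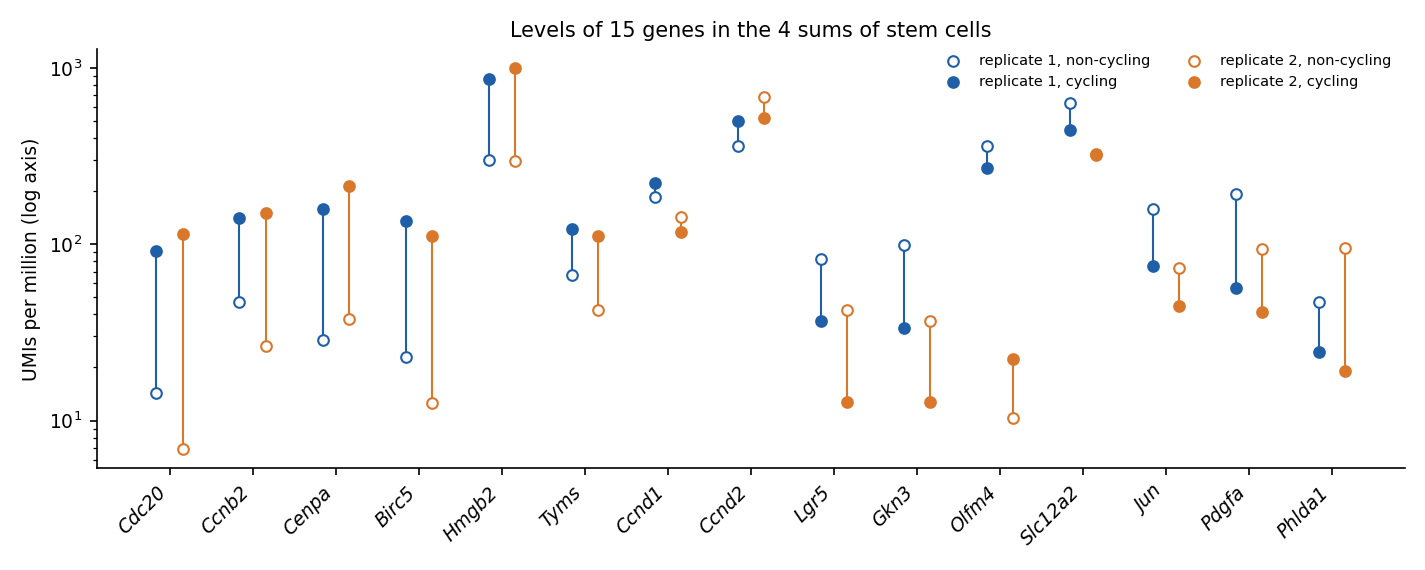
Level of 15 genes (y axis, CPM, log axis) in the 4 sums of stem cells, with open points for non-cycling and filled points for cycling cells of replicate 1 (blue) and replicate 2 (orange). Cdc20 to Tyms are higher in cycling cells of both mice, Lgr5 and Gkn3 are lower in both, and Ccnd1, Ccnd2 and Olfm4 move in opposite directions in the 2 mice.

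The promoters of the higher genes were examined for short elements known from cell cycle genes. The CHR element (TTTGAA or TTCGAA), the CCAAT box (CCAAT) and an E2F motif (TTTCGCGC, TTTGGCGC or TTTCCCGC) were searched on both strands from 250 bases before to 50 after each start, in RefSeq windows of GRCm38.p6. The 69 higher genes matched 56 windows of 53 genes. Of these windows 62.5% held a CHR element, against 13.8% of the windows of all tested genes and 13.6% for the lower genes. A CCAAT box was in 73.2%, 37.9% and 34.6%, both elements together in 55.4%, 5.68% and 2.47%, and an E2F motif in 5.36%, 4.22% and 3.7%. Over all 32851 windows the 4 shares were 19.2%, 37.4%, 7.52% and 1.84%. Of the 44 windows of the S phase list 15.9% held a CHR element, 61.4% a CCAAT box, 13.6% both and 34.1% an E2F motif. For the 106 windows of the G2 and mitosis lists these shares were 59.4%, 69.8%, 48.1% and 11.3%. Since 45 of the 69 higher genes belong to those lists, the shares of the higher genes are not separate from list membership. A match gives the presence of letters and not a bound site. Cdc20 and Ccnb2 are shown because they rose strongly and hold both elements, and Cks2 because it rose with 4 CCAAT boxes and no CHR element in its window. Capitals mark CHR and CCAAT matches on either strand (TTCAAA and ATTGG on the opposite strand).
Cdc20, minus strand, chr4:118437294-118437593: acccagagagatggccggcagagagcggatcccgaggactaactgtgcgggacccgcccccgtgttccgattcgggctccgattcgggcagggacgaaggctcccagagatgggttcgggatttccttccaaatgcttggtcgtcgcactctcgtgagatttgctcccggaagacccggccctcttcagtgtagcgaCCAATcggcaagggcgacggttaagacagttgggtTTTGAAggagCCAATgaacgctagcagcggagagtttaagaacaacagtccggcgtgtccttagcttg
Ccnb2, minus strand, chr9:70421505-70421804: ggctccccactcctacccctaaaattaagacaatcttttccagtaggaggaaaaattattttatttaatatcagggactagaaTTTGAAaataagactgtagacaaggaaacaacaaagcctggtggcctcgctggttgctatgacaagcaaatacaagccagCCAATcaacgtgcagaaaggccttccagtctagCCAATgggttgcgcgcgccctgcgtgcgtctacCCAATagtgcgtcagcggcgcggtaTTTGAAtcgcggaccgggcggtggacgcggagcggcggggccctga
Cks2, plus strand, chr13:51644982-51645281: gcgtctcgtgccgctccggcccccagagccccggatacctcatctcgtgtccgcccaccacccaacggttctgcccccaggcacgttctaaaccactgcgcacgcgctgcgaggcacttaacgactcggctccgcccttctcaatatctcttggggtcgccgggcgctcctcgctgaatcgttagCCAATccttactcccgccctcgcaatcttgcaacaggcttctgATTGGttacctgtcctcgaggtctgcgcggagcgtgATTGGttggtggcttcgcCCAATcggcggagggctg

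S phase genes differed less than mitotic genes. This contrast is partly built into the rule, since Mki67 and Top2a are transcribed mainly from late S phase to mitosis. Of the tested mitotic genes, 26 of 69 also passed the filter only through the cycling sums. Of the 50 genes 39 were tested, 3 rose and 0 fell, with a median log2 fold change of 0.36, and 28 of the 39 were higher in both mice. Of the 39, 2 were tested only through the cycling sums, and 2 of the other 37 rose. Tyms, which makes the thymidine nucleotide, stood at 123 and 111 CPM in cycling and at 67.2 and 42.3 CPM in non-cycling cells (0.97 ± 0.22, adjusted p = 0.00624). Rrm1, a subunit of ribonucleotide reductase, rose from 28.6 and 20.6 CPM to 61.3 and 66.9 CPM (1.25 ± 0.33). The replicative helicase subunits Mcm2 and Mcm6 were at 0.01 ± 0.27 and -0.02 ± 0.20, and Pcna, the replication clamp, was at 0.47 ± 0.35 (adjusted p = 0.715). When non-cycling cells were picked to match the UMIs of the cycling cells, 0 of 35 tested S phase genes passed, and the median was 0.23. This matching left 42 and 22 non-cycling cells. The median depth was still 14252 UMIs in cycling against 12572 in non-cycling cells of replicate 1, and 13033 against 12976 in replicate 2. Whether calls were lost there through closer depth or through fewer cells was not tested.

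Genes of the G1 decision to divide did not move as a group. Of 14 tested D cyclin, CDK inhibitor and E2F/Rb genes, 1 rose and 1 fell, and the median was -0.00. The gene that rose, Cdkn3, was the 1 gene tested only through the cycling sums, so its rise carries no weight as a count. Ccnd1, the cyclin of entry into the cycle, stood at 222 and 118 CPM in cycling and 186 and 143 CPM in non-cycling cells (-0.03 ± 0.17, adjusted p = 0.986). Ccnd2 stood at 501 and 519 against 360 and 682 CPM (-0.05 ± 0.13, adjusted p = 0.955). Both cyclins were higher in the cycling cells of replicate 1 and lower in those of replicate 2. Cdkn1a, the inhibitor p21, had 14 and 13 UMIs against 10 and 16 (0.80 ± 0.42, adjusted p = 0.519). Cdkn3, a phosphatase of cyclin-dependent kinases, rose from 10.0 and 4.57 CPM to 49.0 and 44.6 CPM (2.56 ± 0.44). Cdk6, a partner of the D cyclins, fell by 0.66 ± 0.19 (adjusted p = 0.0494). That call was lost under most alternatives, library size scaling (adjusted p = 0.112) and UMI matching (adjusted p = 0.17) included.

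Lgr5 was lower in cycling stem cells. It had 24 and 4 UMIs in cycling cells and 58 and 37 in non-cycling cells, or 36.8 and 12.7 CPM against 82.9 and 42.3 CPM. The log2 fold change was -1.40 ± 0.33 (adjusted p = 0.00781), with -1.21 in replicate 1 and -1.64 in replicate 2. Lgr5 was detected in 23.8% and 18.2% of cycling cells and in 44.4% and 31.9% of non-cycling cells, although the cycling cells were deeper. In the UMI-matched cells it was at -1.02 and no longer passed (adjusted p = 0.17), and with the spread of all epithelial sums it was at -1.38 (adjusted p = 0.22). Lgr5 lies on chromosome 10 from 115450311 to 115587780 (GRCm38, minus strand).

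Of 26 tested stem cell and Wnt target genes 0 rose and 4 fell (15.4%), and the median was -0.29. Gkn3, a secreted gastrokine that marks intestinal stem cells, stood at 33.7 and 12.7 CPM in cycling and 98.7 and 36.6 CPM in non-cycling cells (-1.64 ± 0.33, adjusted p = 0.00138), and stayed past the threshold in the UMI-matched cells at -1.49. With the spread of all epithelial sums it was at -1.55 (adjusted p = 0.742). Slc12a2, an ion cotransporter high in crypts, was at 443 and 632 CPM in replicate 1 and at 322 and 326 CPM in replicate 2, with values of -0.62 and -0.15 in the 2 mice (-0.44 ± 0.12, adjusted p = 0.0352). In the UMI-matched cells it did not pass (adjusted p = 0.385). Cdk6, described above, was the other. Smoc2 (-0.49 ± 0.18), Sox9 (-0.54 ± 0.18), Axin2 (-0.20 ± 0.21) and Ascl2 (-0.28 ± 0.26) did not pass. Olfm4, a secreted stem cell marker, had 176 and 7 UMIs against 252 and 9, with -0.52 in replicate 1 and 0.82 in replicate 2 (-0.45 ± 0.18, adjusted p = 0.301). The 5 tested genes of reserve and regenerative stem cells gave 0 calls in either direction, with Hopx at -0.10 ± 0.21.

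Cytosolic ribosomal protein genes were lower in cycling stem cells. The list of 83 genes summed to 251460 CPM in cycling and 284900 CPM in non-cycling cells of replicate 1, and to 335850 and 369910 CPM in replicate 2, ratios of 0.883 and 0.908. Of the 80 tested genes 56 fell (70%), 0 rose, and 79 were lower in both mice, with a median of -0.26 and single values from -0.48 to -0.08. Rps9 stood at 4592 and 5353 CPM against 5737 and 6082 CPM (-0.35 ± 0.06, adjusted p = 8.02e-05). Rps19 and Rps6 fell by 0.32 ± 0.05 and 0.32 ± 0.06. Other genes of translation, named after their values were seen, went the same way: the elongation factors Eef1a1 (-0.35 ± 0.05) and Eef2 (-0.30 ± 0.07) fell, as did Tpt1 (-0.34 ± 0.06). The count of 56 stayed at 56 in the UMI-matched cells. It was 30 under scaling by library size, where the list's median was -0.16 and that of all genes 0.09, and 0 with the spread of all epithelial sums, where the median was -0.28. These genes share each sum and are not independent measurements. Levels are shares of each sum, so fewer ribosomal protein transcripts and more of all others cannot be told apart.

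Ribosome biogenesis genes did not follow the ribosomal proteins. Of 29 tested 1 rose and 0 fell, with a median of 0.02, and the gene that rose was Nhp2, a protein of the RNA-modifying H/ACA particles (0.45 ± 0.13, adjusted p = 0.0401). Nhp2 did not pass in the UMI-matched cells (adjusted p = 0.124). Nuclear genes of oxidative phosphorylation gave 0 rises and 1 fall among 40, Cox4i1 (-0.24 ± 0.06), which did not pass with library size scaling (adjusted p = 0.235) or in the UMI-matched cells (adjusted p = 0.182). The 13 mitochondrially encoded genes gave 0 calls with a median of -0.03.

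**Figure D4:**
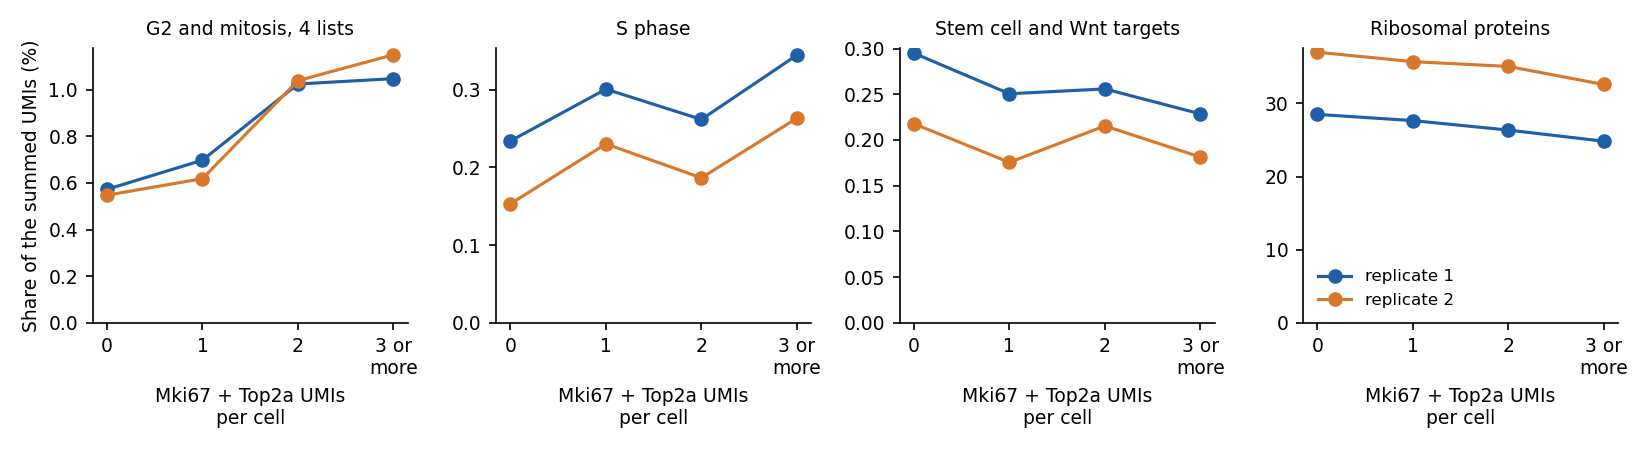
Share of the summed UMIs (y axis, percent) taken by 4 gene lists in stem cells grouped by their Mki67 and Top2a UMIs (x axis), in replicate 1 (blue) and replicate 2 (orange). The G2 and mitosis lists step up between 1 and 2 UMIs, and the ribosomal protein share goes down at each step in both mice.

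The levels by number of Mki67 and Top2a UMIs are given as a description, since these UMIs made the classes and depth differed between the groups. The median cell with a sum of 1 held 12377 UMIs in replicate 1. In replicate 2 it held 15612 UMIs, more than the 13033 of the cycling cells. The G2 and mitosis lists stood at 5724, 6973, 10239 and 10469 CPM in replicate 1 cells with 0, 1, 2 and 3 or more UMIs, and at 5475, 6182, 10384 and 11493 CPM in replicate 2. The cells just outside the limit were closer to the non-cycling cells, and those just inside were close to the cells further in. The ribosomal protein share fell by steps, at 28.5, 27.6, 26.3 and 24.8% in replicate 1 and 37.0, 35.7, 35.0 and 32.6% in replicate 2. S phase genes had no such order, as cells with 1 UMI (3006 and 2301 CPM) lay above those with 2 UMIs (2616 and 1865 CPM) in both mice.

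Outside the lists, 18 genes rose and 30 fell. Mt2, a metallothionein, stood at 67.4 and 162 CPM in cycling and at 34.3 and 42.3 CPM in non-cycling cells (1.44 ± 0.27, adjusted p = 0.000517). Hjurp, the chaperone that loads Cenpa, rose by 1.12 ± 0.32 on the log2 scale, Tuba4a, an alpha tubulin, by 0.83 ± 0.22, Nucks1, a chromatin protein, by 0.74 ± 0.14, and Lyar, a nucleolar protein, by 0.82 ± 0.18. The other largest rises were in Tmed5, Rbm10, Lsm3, Nsmce4a and Ccdc34, between 0.59 and 1.16. In the UMI-matched cells Hjurp (adjusted p = 0.0731), Tmed5 (0.0637), Rbm10 (0.241), Lyar (0.136) and Nsmce4a (0.108) did not pass, while Mt2, Tuba4a, Nucks1, Lsm3 and Ccdc34 did. With the spread of all epithelial sums none of these 10 genes passed, at adjusted p values from 0.158 for Nucks1 to 0.572 for Ccdc34.

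Pdgfa, a growth factor that signals to the mesenchyme, was lower in cycling cells at 56.7 and 41.4 CPM against 193 and 93.8 CPM (-1.71 ± 0.22, adjusted p = 1.12e-06). It kept its call in the UMI-matched cells (-1.32) and with the spread of all epithelial sums (-1.62, adjusted p = 0.0353). Phlda1, a pleckstrin-homology protein, stood at 24.5 and 19.1 CPM against 47.2 and 94.9 CPM (-1.61 ± 0.34). Sorbs2 (-1.69 ± 0.43), the antisense RNA Kcnq1ot1 (-1.38 ± 0.36), Ms4a10 (-1.23 ± 0.30), Epb41l4aos (-0.90 ± 0.19), Ift20 (-0.69 ± 0.19) and Socs2 (-0.67 ± 0.19) fell as well. In the UMI-matched cells Phlda1 (adjusted p = 0.06), Sorbs2 (0.109), Kcnq1ot1 (0.107), Ms4a10 (0.105), Ift20 (0.0709) and Socs2 (0.292) did not pass, while Epb41l4aos did. With the spread of all epithelial sums these 7 genes did not pass, at adjusted p values from 0.084 for Ms4a10 to 0.581 for Ift20. The use of strand in the counting was not given, so antisense genes are uncertain. Reg3b, an antimicrobial lectin, had 69 and 193 UMIs in replicate 1 and 0 and 2 in replicate 2 (-1.50 ± 0.21), with 35.6% of its UMIs in 1 cell, so it describes replicate 1. Malat1, a nuclear long RNA named after its values were seen, was lower in both mice, at 1372 and 1675 CPM against 1840 and 2078 CPM (-0.47 ± 0.07).

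Immediate early genes gave 1 fall among 9 tested, and all 9 were lower in both mice, with a median of -0.88. The medians in the single mice were -0.45 and -0.79, against -0.01 and -0.05 over all genes tested. Jun, an AP-1 subunit, stood at 75.03 and 44.6 CPM against 157 and 73.2 CPM (-1.08 ± 0.22, adjusted p = 0.00157). Jun kept its direction in all 14 alternatives that tested it and passed in 9. Fos was at -0.88 ± 0.39 (adjusted p = 0.388), on 17 UMIs in cycling and 59 in non-cycling cells. Zfp36l2, which encodes an RNA decay factor and was of interest to the study, stood at 247 and 188 CPM in cycling and 235 and 208 CPM in non-cycling cells (-0.12 ± 0.15, adjusted p = 0.877). Zfp36 and Zfp36l1 were at -0.23 ± 0.49 and 0.09 ± 0.26. Arl4c, with 16 UMIs in all 4 sums, was not tested.

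Markers of other cell types were uneven. The enterocyte list summed to 956 and 755 CPM in cycling and 948 and 640 CPM in non-cycling cells, and the secretory progenitor list to 297 and 261 CPM against 265 and 309 CPM, with 0 calls in either. The goblet list summed to 348 and 252 CPM in cycling and 379 and 196 CPM in non-cycling cells. Muc2, the goblet mucin, fell (-2.38 ± 0.42), but 71.0% of its UMIs were in 1 cell. Tff3, a trefoil peptide, rose by 0.66 ± 0.17, with 28.9% of its UMIs in 1 cell. The Paneth list summed to 147 and 6.37 CPM against 396 and 10.3 CPM, and its members Lyz1 (-1.32 ± 0.34) and Defa24 (-1.53 ± 0.33) fell, with no UMI of either in replicate 2. The immune list stood at 0 in both cycling sums and at 2.86 and 169 CPM in the non-cycling sums, where 148 of the UMIs of replicate 2 lay in 1 cell, and 3 of its 10 genes were at 0. Enteroendocrine, tuft and mesenchymal markers had 0 tested genes and at most 10.7 CPM in any sum. Without the 7 cells that held 50 or more UMIs of the goblet, Paneth or immune list, 79 genes were higher and 112 lower, the mitotic count was 46 and the ribosomal count 59. Muc2 was then too low to be tested and Tff3 was at -0.90 (adjusted p = 0.156). Lgr5 (-1.33) and Gkn3 (-1.68) kept their calls.

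The same split was made in TA cells to see whether the difference between the classes was the same there. Only 28 TA cells, 14 in each library, were non-cycling, against 579 cycling cells, which were deeper (22485 against 11506 UMIs and 17205 against 14080 UMIs at the median). Stem and TA labels were drawn by the study from the expression of these same cells, so the comparison describes annotated classes. Over 7195 genes, the log2 fold change was larger in stem cells for 70 (0.973%) and smaller for 41 (0.57%) by an interaction term over the 8 sums. Of 107 tested G2 and mitosis genes 17 were larger and 1 was smaller in stem cells, and the medians of the lists were 1.70 in stem and 0.90 in TA cells. More of these genes passed the filter over 8 sums than the 69 tested in stem cells alone. Genes that passed only through cycling sums were not set apart here. Of 80 ribosomal protein genes 0 differed in the interaction, with medians of -0.25 and 0.14, and of 26 stem cell and Wnt target genes 5 were smaller, with medians of -0.22 and 0.80. These values include folds over non-cycling TA sums without a UMI. Among genes with UMIs in all 8 sums, 1 of 20 stem cell and Wnt target genes was smaller, Slc12a2, with medians of -0.17 in stem and 0.61 in TA cells, and 15 of 77 G2 and mitosis genes were larger and 1 smaller, with medians of 1.35 and 0.63.

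The 5 genes with the lowest p of the interaction belong to the G2 and mitosis lists. Cdc20 stood at 163 and 95.9 CPM in cycling TA cells and at 239 and 256 CPM in non-cycling TA cells, so that it was lower in the cycling ones (-1.002, adjusted p = 5.64e-05). The difference between stem and TA cells was 4.11 ± 0.39 (adjusted p = 5.22e-22). Cenpa was at 237 and 265 CPM in cycling and 269 and 407 CPM in non-cycling TA cells, a difference of 2.80 ± 0.29. Ccnb2 (2.67 ± 0.32), Hmgb2 (1.64 ± 0.20) and Tubb4b (1.80 ± 0.22) followed. TA cells without a UMI of Mki67 and Top2a thus held more Cdc20 transcript than cycling stem cells did. Rrm1 had a fold change of 1.86 in TA cells (adjusted p = 0.000563), and its difference from stem cells did not pass (-0.65 ± 0.57, adjusted p = 0.691).

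**Figure D5:**
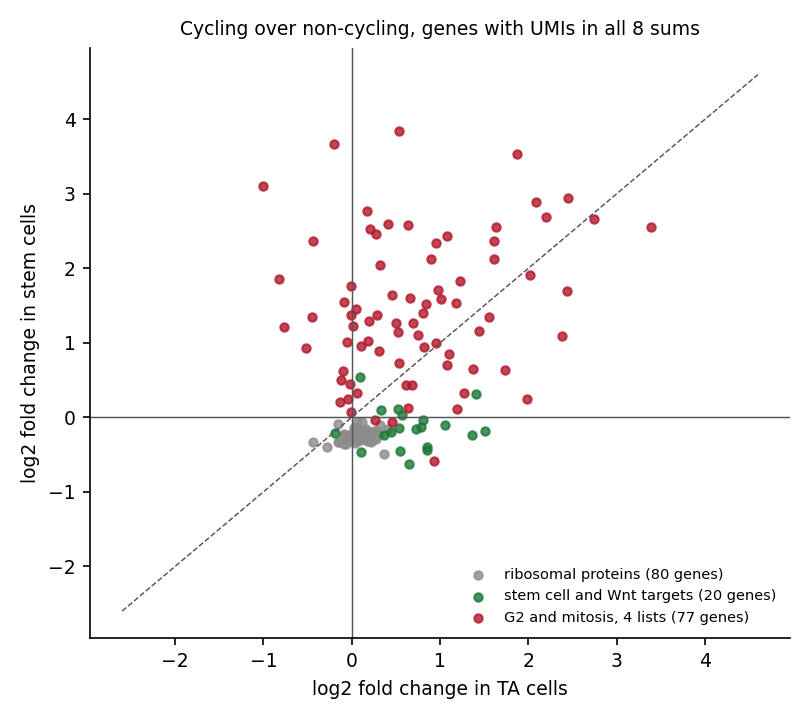
Log2 fold change between cycling and non-cycling cells in TA cells (x axis) and in stem cells (y axis) for 77 G2 and mitosis genes (red), 20 stem cell and Wnt targets (green) and 80 ribosomal protein genes (grey) with UMIs in all 8 sums. The dashed line marks equal values. Of the red points 57 of 77 lie above it, of the green points 19 of 20 lie below it, and of the grey points 78 of 80 lie below it.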

How the data were processed

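The authors aligned reads to mm10 with Cell Ranger 3.0.1 and deposited raw UMI counts per gene and cell for each library. SoupX was used against ambient RNA, though the sources do not say in which files. They called doublets, removed cells with under 1500 genes or over 25% mitochondrial reads, and named clusters with Seurat. The deposited mitochondrial percent and doublet score of each cell were used as filters in alternatives. Annotations were joined to the count table by cell order, with equal UMI totals for all 3275. The sums used the matrices of each library, in which 1103 of 2082 and 255 of 1193 cells had the same total. The other cells there held up to 29 and 262 more UMIs. The deposited tables also hold 2937 cell columns of another series, not used. Counts were summed per class and mouse, filtered with filterByExpr (minimum count 10), scaled with TMM and fitted with robust quasi-likelihood in edgeR 4.0.16 (R 4.3.3), with class and mouse as terms. Both classes came from the same mouse, which is the pairing, and deviations of the paired sums correlated at 0.839. Tests were two-sided with Benjamini-Hochberg adjustment. SE is the fold change over the square root of F. Values per mouse used a prior count of 2. Both libraries are mice of 1 group. With mouse as a term, p values do not measure the spread between the mice. They rest on how the class difference varied between 2 mice, with 1 residual degree of freedom. Most weight came from spread borrowed across genes (median of 40.25 prior degrees of freedom). Classes, gene lists and the split were chosen with earlier results of these data known. Genes named were, per list, up to 4 called genes with the lowest adjusted p and the same direction in both mice, 10 fixed genes, the 10 largest rises and falls outside the lists at a mean of 20 CPM or more, and the 5 lowest p of the interaction. Others were named after their values were seen, and a few genes that the rule names are not reported here. Alternatives covered scaling (DESeq2 1.42.0 size factors, library size), the DESeq2 test, no filter, no block, thinning, UMI matching, mitochondrial, doublet and class limits. The limit on marker UMIs was added after seeing the data. The fit was also run on simulated counts, drawn with more spread than the real sums and with the same means for both mice. That run does not show how well calls hold in these paired sums. Gene positions are from GENCODE M21 on the same build.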

Additional observations from a re-analysis of the deposited data

Results flagged for a closer look

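The difference between cycling and non-cycling cells was not the same in stem and TA cells, by the interaction term of edgeR, for 19 of the genes named in the report. Over all 7195 genes tested, 0.973% were larger and 0.57% smaller in stem cells. Cdc20, Cenpa, Ccnb2, Hmgb2 and Tubb4b were named by their interaction p, so that they pass was fixed in advance. Most others were named for a difference in the same stem cell sums, so the count of 19 is a description only. Values are the stem minus TA difference of the log2 fold change, and rest on 28 non-cycling TA cells. Members of the G2 and mitosis lists with a larger fold change in stem cells were Cdc20 (4.11), Ccna2 (3.30), Cenpa (2.80), Ccnb2 (2.67), Birc5 (2.60), Cdca8 (1.94), Tubb4b (1.80), Hmgb2 (1.64), Rad21 (1.21) and Cks2 (1.10). Outside these lists Cdkn3 (3.84), Tuba4a (1.80) and Mt2 (1.34) were larger too. Kif22 (8.31) had no UMI in non-cycling stem cells, so that its size is not defined. Slc12a2 (-1.24) and Muc2 (-3.21) were smaller in stem cells. Lgr5 (-8.39), Gkn3 (-8.95) and Olfm4 (-9.00) had no UMI in the 28 non-cycling TA cells, and their sizes are not defined either. With the cells thinned to 5000 UMIs before the split, 6 genes were larger and 17 smaller over all genes tested.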

How the results depend on the processing

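Counts of genes higher and lower in cycling cells are given in this order, beside 69 and 95. They were 119 and 55 with library size only, 20 and 43 when classed cells were thinned to 5000 UMIs, 34 and 70 with 10% or less mitochondrial UMIs, 42 and 64 with a limit of 1 or more UMIs, 25 and 1 with all epithelial sums in the fit, and 3 and 61 with the DESeq2 Wald test. When cells were thinned before the split, which left 19 and 6 cycling cells, edgeR called 0 and 0 (58 and 183 at an unadjusted p under 0.05). Without the replicate block, that is without pairing by mouse, it called 0 and 0 (103 and 51 unadjusted). Mitotic genes higher (45) were 0 without the replicate block, 15 and 0 thinned after and before the split, 23 with the mitochondrial limit, 27 at 1 or more UMIs, 24 with all epithelial sums and 2 with DESeq2. Ribosomal protein genes lower (56) were 30 with library size only, 0 without the replicate block, 26 and 0 thinned after and before the split, 37 at 1 or more UMIs and 0 with all epithelial sums. Stem cell and Wnt target genes lower (4) were 2 with library size only, 0 without the replicate block, 2 and 0 thinned, 1 in UMI-matched cells, 2 with the mitochondrial limit, and 0 with all epithelial sums and with DESeq2. The mean share of cycling stem cells (24.5%) was 9.55% after thinning, 15.9% at 3 or more UMIs and 47.9% at 1 or more. The interaction with TA cells (70 larger and 41 smaller) gave 2 and 0 without the replicate block, 31 and 52 without a filter, and 6 and 17 when thinned before the split. The causes were not tested.

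No gene that changed sign had an adjusted p under 0.05 in edgeR under that setting. Tff3 was at -2.94 thinned before the split and -0.90 without the cells of 50 or more marker UMIs. Ccnd1 was at 0.072 with library size only, 0.19 and 0.0090 thinned after and before the split, 0.068 in UMI-matched cells, 0.054 at 1 or more UMIs and 0.022 without the marker cells. Ccnd2 was at 0.050 with library size only, 0.13 thinned before and 0.030 at 1 or more UMIs. Olfm4 was at 0.074 with DESeq2, and Zfp36l2 at 0.044 thinned before and 0.0020 at 1 or more UMIs. Zfp36l1 was at -0.092 thinned before, -0.12 with the mitochondrial limit and -0.011 at 1 or more UMIs. Leaving out 1 mouse leaves no test, only the value of the other mouse. These ranged from -0.52 to 0.82 for Olfm4, -0.59 to 0.080 for Ascl2, -0.40 to 0.14 for Ccnd1, -0.52 to 0.36 for Ccnd2, -0.52 to 0.14 for Zfp36 and -0.42 to 0.36 for Zfp36l1.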

Other observations

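MHC class II genes, which crypt cells use to present antigen, gave 0 calls among 6 tested, with a median of -0.16 and Cd74 at 841 and 853 CPM in cycling against 849 and 939 CPM in non-cycling stem cells. Epithelial identity genes gave 0 calls among 7, with a median of -0.04.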
